A study of Mus musculus with 1824 samples.

Results

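The mitochondrially encoded genes were followed through single cells of early mouse chimaeras. They are the genes whose symbol starts with mt-, and 37 of the 55487 genes in the count table met that rule. The set held 13 protein genes, 2 ribosomal RNA (rRNA) genes and 22 transfer RNA (tRNA) genes, each under 1 identifier. All lie on chromosome M.

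Mitochondrial DNA is transcribed from both strands as long precursors, which are cut at the tRNAs into the mature RNAs. Its protein genes encode subunits of complexes I, III, IV and V of the respiratory chain, and its rRNAs build the mitochondrial ribosome that translates them. All other subunits, and the machinery that copies, transcribes and processes mitochondrial DNA, are encoded in the nucleus. Several stretches of the mitochondrial genome also exist as copies in nuclear chromosomes, called nuclear mitochondrial segments. A short read from such a stretch has more than one possible origin.

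The cells came from chimaeric embryos made by injecting *Tet* triple-knockout embryonic stem cells, which carry an H2B-tdTomato marker, into C57BL/6J blastocysts. The labels give the strain as CD1, which per the study's methods is the strain of the recipient females, and embryos were pooled for the chimaera sorts. There were 1824 wells on 19 plates of 96 wells, 11 of embryonic day 7.5 (E7.5) and 8 of E8.5. The E7.5 plates were 1 plate labelled as chimera, 4 plates of embryos numbered 1, 2, 4 and 5, and 6 plates that carry a lane number in their titles (lane plates). All groups share the chimaera design. Knockout or host origin, the sort gate, and the protocol are not labelled for single wells. Per the methods of the study, some cells were read for RNA alone and others for DNA methylation as well, most of the latter with a chromatin accessibility step, so protocol and stage cannot be told apart. Only the 4 numbered plates name an animal, so E8.5 counted as 1 sample, plates served as technical units, and no p-value was computed between stages.

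A total of 1649 wells had at least 100000 reads and entered the analysis. Plates kept 65 to 94 wells, and the kept wells held 846650245 reads for E7.5 and 499297084 for E8.5. Median reads per well ranged over plates from 224956 on lane plate 5 to 1699480 on lane plate 3. Intervals are exact 95% intervals for counting error alone, because reads amplified by PCR without molecular identifiers do not each stand for 1 molecule. Nothing in the labels ties the wells of other plates to separate animals, so the spread between plates may be technical.

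The sequences that matter most for reading these genes are those shared with nuclear copies. Annotated pseudogenes, 7 in all, stand side by side on the minus strand of chromosome 1 (GRCm38, between bases 24611535 and 24616197), and between them they copy mt-Nd4, mt-Nd4l, mt-Nd3, mt-Co3, mt-Atp6, mt-Co2 and the end of mt-Co1. Gm28661, at chr1:24614885-24615565, ended 3 bases before the end of mt-Co2 and was otherwise identical to it. Gm13341, another copy at chr2:22587291-22587962, was 97.6% identical to it. A stretch of mt-Co2 (chrM:7213-7312, plus strand) and the aligned bases of Gm28661 (chr1:24615266-24615365) and Gm13341 (chr2:22587663-22587762) are given from 5′ to 3′ from the GENCODE M21 transcripts of GRCm38, with capitals at the positions where Gm13341 differs.
mt-Co2: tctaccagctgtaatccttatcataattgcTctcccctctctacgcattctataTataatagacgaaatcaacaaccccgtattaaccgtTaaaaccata
Gm28661: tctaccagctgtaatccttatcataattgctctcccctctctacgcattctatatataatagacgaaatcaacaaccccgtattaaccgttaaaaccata
Gm13341: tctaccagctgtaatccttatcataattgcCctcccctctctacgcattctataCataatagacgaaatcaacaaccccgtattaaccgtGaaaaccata
Counted from 1 at the 5′ end of mt-Co2, with the base of mt-Co2 first, Gm13341 carried T231C, T255C and T291G in this stretch. In all it had 16 mismatches and 1 gap.

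The copies of mt-Nd3 and mt-Co1 on chromosome 1 each differ from the mitochondrial gene by 1 base in the aligned part. Gm28438 carried T3C against mt-Nd3 and was otherwise identical, over 99.7% of its bases. Gm29216 carried A1066T against the end of mt-Co1 and was otherwise identical, over 99.8% of the aligned bases. Both stretches are shown from 5′ to 3′ with the differing base in capitals, counted from the 5′ end of the mitochondrial gene. The first pair is bases 1 to 75 of mt-Nd3 (chrM:9459-9533) and chr1:24613045-24613119. The second is bases 1063 to 1122 of mt-Co1 (chrM:6390-6449) and chr1:24616129-24616188.
mt-Nd3: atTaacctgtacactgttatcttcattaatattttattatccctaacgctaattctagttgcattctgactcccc
Gm28438: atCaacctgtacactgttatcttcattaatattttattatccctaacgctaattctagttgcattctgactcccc
mt-Co1: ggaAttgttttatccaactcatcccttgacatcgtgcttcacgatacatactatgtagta
Gm29216: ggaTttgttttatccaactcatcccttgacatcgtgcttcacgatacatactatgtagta

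To put a figure on this sharing, every window of 75 bases, the length of 1 read, was looked up in all other annotated transcripts. Nearly all windows of 5 protein genes occurred in a nuclear copy. The shares were 99.9% for mt-Co3, 99.5% for mt-Co2, 99.5% for mt-Atp6, 98.7% for mt-Nd4l and 97.8% for mt-Nd3. mt-Nd4 had 61.5%, mt-Co1 39.8%, mt-Nd2 5.71% and mt-Nd5 1.66%. No window of mt-Nd1, mt-Cytb, mt-Nd6, mt-Atp8, mt-Rnr1 or mt-Rnr2 occurred in another annotated transcript. mt-Atp8 overlaps mt-Atp6, and 68.3% of the placements of a read on it also touch another mitochondrial gene. The lookup covered annotated transcripts and not the whole genome.

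First, the share of all reads on the 37 genes was compared between stages and plates. The median well had 2.14% of its reads on them at E7.5 and 1.16% at E8.5. Wells of E7.5 ranged from 0.240% to 8.63%, those of E8.5 from 0.0634% to 4.45%. Pooled over wells, the share was 2.472% at E7.5 (interval 2.471 to 2.473) and 1.284% for E8.5 (1.283 to 1.285), a ratio of 1.92.

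The plates of the stages overlapped. The medians of E7.5 plates ran from 1.29% to 2.92% (mean 2.20% ± 0.586, SD over 11 plates), and those of E8.5 plates from 0.782% to 1.75% (mean 1.19% ± 0.305, SD over 8 plates). At E7.5, the chimera plate had 1.29%, embryos 1, 2, 4 and 5 had 2.85%, 2.04%, 2.58% and 2.88%, and lane plates 1 to 6 had 2.92%, 1.47%, 2.41%, 1.81%, 1.65% and 2.28%. At E8.5, plates 1 to 8 had 1.17%, 1.75%, 0.984%, 1.52%, 1.12%, 1.09%, 0.782% and 1.12%. Of the E7.5 plates, 3 lay at or below the highest E8.5 plate, and these were the chimera plate and lane plates 2 and 5. Over the 4 numbered embryos, each 1 animal, the mean of the medians was 2.59% ± 0.390 (SD, n = 4). No kept well exceeded 10%, and 33 wells, all of E7.5, exceeded 5%. Within plates, the share followed depth only weakly, with Spearman's rho across wells between -0.317 and 0.364.

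**Figure D1:**
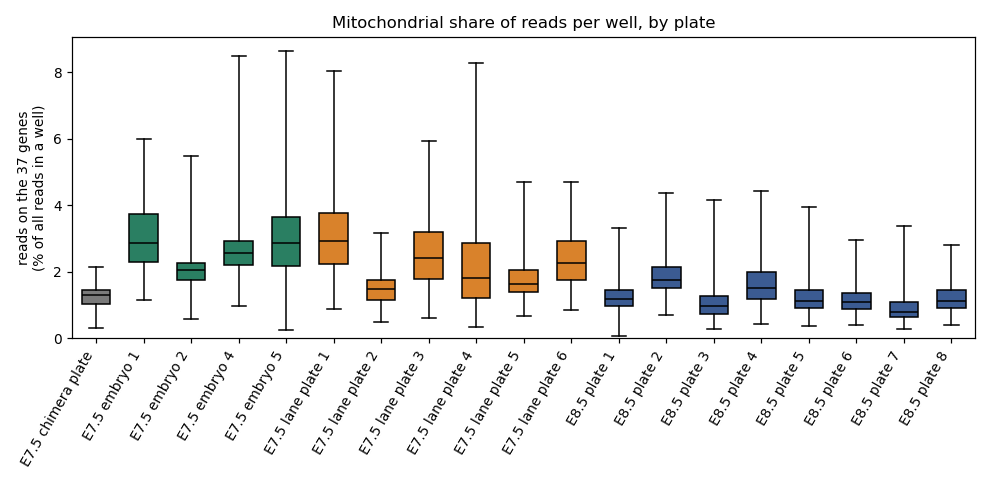
Percent of all reads on the 37 mitochondrial genes in each well with at least 100000 reads, by plate. Boxes give quartiles, black lines medians and whiskers the full range, with grey for the chimera plate, green for numbered embryos, orange for lane plates and blue for E8.5. The E8.5 medians lie between 0.782% and 1.75%, and 3 of the 11 E7.5 medians lie at or below the highest of them.

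Most mitochondrial reads came from a few genes. mt-Co1 (the catalytic subunit of complex IV), mt-Nd1 and mt-Nd5 (subunits of complex I) and mt-Cytb (the cytochrome b of complex III) held 80.7% of mitochondrial reads at E7.5 and 90.02% of those of E8.5. At E7.5 their shares were 30.7%, 22.3%, 10.3% and 17.3%, in that order. The same genes held 33.2%, 27.8%, 7.36% and 21.7% of mitochondrial reads at E8.5. The rRNAs, which make up most mitochondrial RNA in a cell, were captured here on oligo-dT like any other RNA. mt-Rnr2 held 7.12% of mitochondrial reads at E7.5 and 3.63% for E8.5, and mt-Rnr1 1.93% and 1.16%.

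To compare genes with each other, levels were expressed as RPKM, the reads of a gene for every 1000000 reads (CPM) divided by its length in kilobases. At E7.5 the pooled RPKM levels were 5768 for mt-Nd1, 4912 for mt-Co1, 3743 for mt-Cytb, 1399 for mt-Nd5, 1124 for mt-Nd2, 1113 for mt-Rnr2, 755.8 for mt-Nd4, 498.4 for mt-Rnr1 and 429.1 for mt-Nd6. Neighbours in this order had overlapping plate ranges throughout, and mt-Nd1 was above mt-Co1 on 9 of 11 plates. At E8.5 the order began in the same way, with 3732 for mt-Nd1, 2759 for mt-Co1 and 2431 for mt-Cytb, and mt-Cytb was above mt-Nd5 (518.1) on all 8 plates without overlap. mt-Nd6, the only protein gene on the other strand, was the lowest of these genes at E8.5, with 111.1.

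A wide gap followed. At E7.5 the next genes were mt-Co2 with an RPKM of 46.03, mt-Atp6 with 36.2, mt-Co3 with 31.9, mt-Nd3 with 7.52, mt-Nd4l with 4.80 and mt-Atp8 with 1.99. mt-Co2 and mt-Co3 encode the other mitochondrial subunits of complex IV, mt-Atp6 and mt-Atp8 subunits of the ATP synthase, complex V, and mt-Nd3 and mt-Nd4l subunits of complex I. On all 11 plates mt-Nd6 lay above mt-Co2, and the plate ranges did not overlap. At E8.5 the RPKM of the same 6 genes lay between 0.202 (mt-Nd4l) and 2.06 (mt-Atp6). These are mt-Atp8 and the 5 protein genes with over 90% of windows in a nuclear copy. Those 5 genes made up 24.5% of the length of the protein genes. They held 0.380% of protein gene reads at E7.5 and 0.0316% for E8.5. For some of these genes the order depends on the length used. Divided by the windows that occur in no other gene, of which mt-Co2 has 3, mt-Atp6 2 and mt-Co3 1, the E7.5 levels were 10496, 12342 and 25033 CPM per 1000 windows, against 8575 for mt-Co1 and 6266 for mt-Nd1. At E8.5 these levels were 435.9 for mt-Co2, 700.985 for mt-Atp6 and 1005.4 for mt-Co3, against 4816 for mt-Co1 and 4054 for mt-Nd1. These levels rest on 1 to 3 windows a gene, which reach past the end of the annotated copy. All reads counted for the gene were divided by them, not only reads from those windows. Nothing is therefore read from the order that they give. mt-Nd3, with 6 windows that occur in no other gene, had 436.2 CPM per 1000 windows at E7.5. mt-Atp8, with 87, had 4.67. Both were still below mt-Co1, and mt-Nd4l had no such window.

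**Figure D2:**
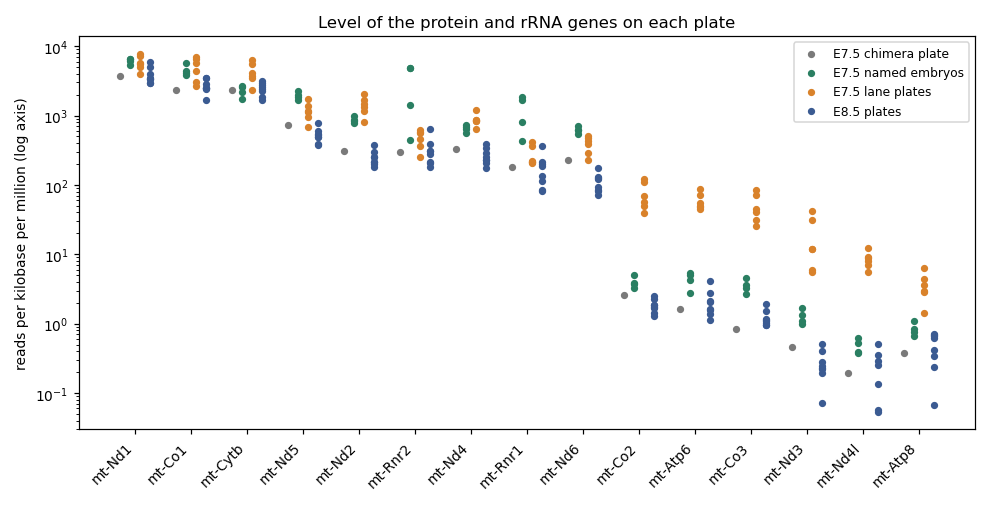
RPKM of the 13 protein genes and 2 rRNAs, 1 point per plate, on a log axis and ordered by the pooled E7.5 level; a value of 0 (mt-Nd4l on 1 E8.5 plate) is not drawn. From mt-Co2 to the right, the orange lane plates stand above all other plates.

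mt-Co2 was then compared with the other 12 protein genes on each plate. It was low everywhere, but far less so on the lane plates. On lane plates 1 to 6 its level was 74.6, 34.04, 39.2, 82.9, 27.3 and 47.7 CPM. On the chimera plate it was 1.75 CPM, and on embryos 1, 2, 4 and 5 it was 2.52, 2.25, 3.40 and 2.67 CPM. E8.5 plates 1 to 8 had 1.73, 1.55, 1.28, 1.19, 0.885, 1.25, 0.985 and 1.16 CPM. The 6 lane plates were thus all above the other 13 plates with no overlap, while the chimera plate and embryo plates lay between 1.75 and 3.40 CPM, next to the E8.5 plates.

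As a ratio to the other 12 protein genes, mt-Co2 had 0.148% to 0.344% of their reads on lane plates, 0.0118% to 0.0146% on the other E7.5 plates and 0.00743% to 0.0137% at E8.5. Pooled, the log2 ratio of this quantity between E8.5 and E7.5 was -3.71, and it was -0.30 without the lane plates. On the log2 scale the SD between plates was 2.12 at E7.5 (n = 11) and 0.29 at E8.5 (n = 8), and within E7.5 it was 0.45 over the lane plates and 0.13 over the other 5. When every well was thinned to 100000 reads, at least 1 read on mt-Co2 was left in 86.2% to 96.4% of wells on lane plates, in 15.96% to 35.2% on the other E7.5 plates and in 6.82% to 14.1% at E8.5.

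mt-Co2 was not alone in this. mt-Atp6 had 31.01 to 59.1 CPM on lane plates and 0.764 to 3.61 on the other 13 plates, and mt-Co3 20.02 to 65.3 against 0.661 to 3.60. Lower still, mt-Nd3 had 1.91 to 14.5 against 0.0252 to 0.586, mt-Nd4l 1.64 to 3.64 against 0 to 0.184, and mt-Atp8 0.293 to 1.29 against 0.0135 to 0.221. For each of these genes every lane plate lay above every other plate. mt-Atp8, which had no window in an annotated nuclear copy, shared the pattern. Unannotated sequence, such as that between Gm10925 (mt-Atp6) and Gm28661 (mt-Co2) on chromosome 1, was not looked up.

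**Figure D3:**
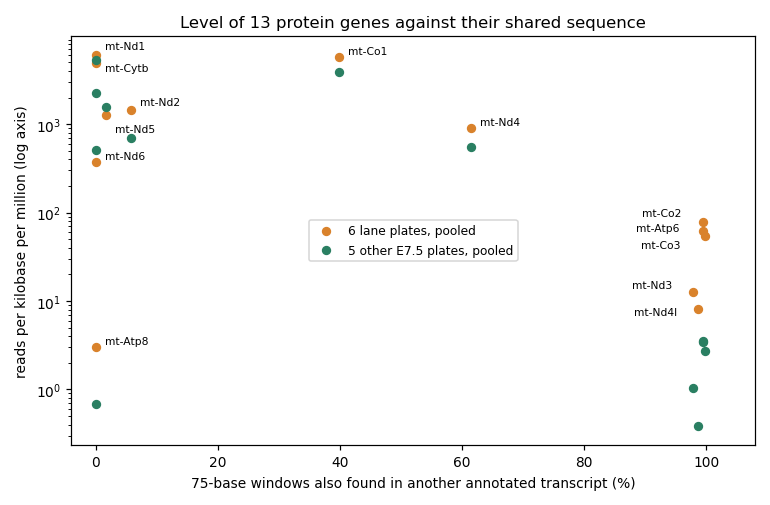
RPKM (log axis) of the 13 protein genes against the percent of their 75-base windows that occur in another annotated transcript, pooled over the 6 lane plates (orange) and the 5 other E7.5 plates (green); names stand beside the orange points. The 5 genes at the right, with 97.8% to 99.9% of windows shared, lie below all genes to their left except mt-Atp8.

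Most of the copies on chromosome 1 were also higher on the lane plates. Gm28661, the copy of mt-Co2, had 12.1 to 25.3 CPM on lane plates and 0.224 to 1.97 on the other plates. Gm10925, the copy of mt-Atp6, had 32.4 to 67.3 against 0.978 to 4.28, and Gm28437, the copy of mt-Co3, had 19.4 to 44.01 against 0.432 to 2.99. Lane plates were above all others for Gm28439 (mt-Nd4, 3.11 to 8.35 against 0.338 to 1.11), Gm10222 (mt-Nd4l, 0.843 to 2.41 against 0.0475 to 0.820) and Gm29216 (mt-Co1, at least 7.18 against at most 2.81) too. Of the copies on chromosome 2, Gm13340 (mt-Co1) overlapped, with 6.18 to 33.7 CPM on lane plates and 2.50 to 25.1 elsewhere, and Gm13341 (mt-Co2) did not exceed 1.72 CPM on any plate. mt-Co2 and both of its copies together reached 105.4 CPM on a lane plate, where mt-Nd1 was not below 2773 CPM on any plate. How reads with several equally good positions were counted is not given in the sources used here, and its part in the low levels was not tested.

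mt-Nd3 and Gm28438, which differ by T3C, divided their reads differently from plate to plate. Embryo 4 had 0.586 CPM on mt-Nd3 and 17.2 on Gm28438, and embryo 5 had 0.375 and 13.8. In embryos 1 and 2 both were low, with 0.458 and 0.701 CPM, and 0.345 and 0.579. On lane plates 1 to 6 mt-Nd3 had 1.91, 2.09, 4.14, 4.12, 14.5 and 10.8 CPM. Gm28438 had 13.5, 11.2, 0.445, 8.86, 1.72 and 0.547 CPM on the same plates. Gm28438 thus held 96.7% and 97.4% of the reads of the pair in embryos 4 and 5, 87.6%, 84.3% and 68.3% on lane plates 1, 2 and 4, and 9.71%, 10.6% and 4.83% on lane plates 3, 5 and 6. The chimera plate had 17 and 20 reads, and the E8.5 plates had 46 and 32 in all.

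Pooled over the E7.5 plates, single wells lay mostly at the edges, but this did not hold on lane plates 1, 2 and 4. Of the E7.5 wells with at least 10 reads on the pair, 43 had under 10% of them on Gm28438, 82 lay in between and the rest, the most frequent kind, had over 90%. In embryo 4, 43 of 45 such wells were over 90%, and in embryo 5, 24 of 25. On lane plate 3, 22 of 32 were under 10% and 0 over 90%. On lane plate 1, 34 of 61 lay in between and 27 were over 90%, and on lane plate 2, 15 of 28 and 13. Lane plate 4 held all kinds, with 3 wells under 10%, 16 in between and 11 over 90%. No E8.5 well reached 10 reads. The genes share 97.8% of the windows of mt-Nd3, so that most reads from either fit both, and the source of these reads was not tested.

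**Figure D4:**
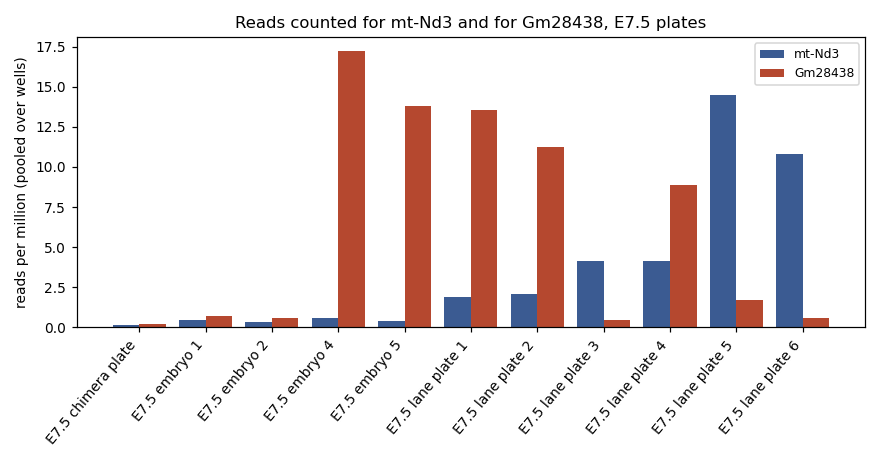
CPM counted for mt-Nd3 (blue) and for its chromosome 1 copy Gm28438 (red) on each E7.5 plate, pooled over wells. Gm28438 is the higher bar for embryos 4 and 5 and lane plates 1, 2 and 4, and mt-Nd3 for lane plates 3, 5 and 6.

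Stage ratios were calculated next, as the log2 of pooled CPM at E8.5 over E7.5 with 1 CPM added to both, which understates changes of low genes. A ratio of at least 1 in either direction was called. Of the 37 genes, 13 passed the minimum of 10 pooled CPM in either stage, and 10 of the 13 were called lower at E8.5, where 8.21% of all genes passing the minimum were. When scaled to the reads on the 37 genes in place of all reads, 5 of the 13 were. None was called higher, where 7.02% of all genes were. The median ratio of the 13 was -1.91, and that of all genes was 0.08. The 13 passed because at least 1 stage was high, so this count says nothing of the other 24. Of the 10, mt-Co2, mt-Co3, mt-Atp6 and mt-Tp passed only through E7.5, so nothing is read from their calls. Their pooled levels were 31.5, 25.03, 24.7 and 12.3 CPM at E7.5 and 1.31, 1.01, 1.40 and 1.57 CPM at E8.5.

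Complex I genes differed among themselves. mt-Nd2 had 1166 CPM at E7.5 (plates 321.7 to 2151) and 251.3 CPM (186.5 to 390.9) for E8.5, and its log2 ratio was -2.21. mt-Nd6 had 222.7 CPM (117.1 to 365.1) and 57.7 CPM (36.9 to 91.9), a ratio of -1.93, with every E8.5 plate below every E7.5 plate. mt-Nd4 had a ratio of -1.56 and mt-Nd5 of -1.43, with overlapping plates. mt-Nd1, with 5520 CPM (3563 to 7352) and 3571 CPM (2773 to 5609), had a ratio of -0.63 and was not called. mt-Nd3 (-1.73) and mt-Nd4l (-1.19) were under the minimum.

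Neither of the other abundant genes was called. For mt-Co1, the ratio was -0.83, from 7588 CPM (3607 to 10683) to 4262 CPM (2593 to 5417). That of mt-Cytb was -0.62, from 4282 CPM (2007 to 7199) to 2781 CPM (1927 to 3605). Both ranges overlapped widely. Scaled to the reads on the 37 genes instead of all reads, the ratios of mt-Nd1, mt-Co1 and mt-Cytb turned to 0.32, 0.11 and 0.32, since their share of mitochondrial reads was higher at E8.5.

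The ratios of mt-Co2 (-3.82), mt-Co3 (-3.70) and mt-Atp6 (-3.42) were the lowest of the 37. All plates of E8.5 lay below all plates of E7.5 for 2 of the 13 genes, mt-Co2 and mt-Nd6, against 1.44% of all genes. The number was 1 with TMM or DESeq2 size factors, 5 without the chimera plate and 5 without E8.5 plate 2. For mt-Co2 this separation was narrow, between 1.73 CPM on E8.5 plate 1 and 1.75 CPM on the chimera plate. Because mt-Co2 passed the minimum only through E7.5, nothing is read from its separation.

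Since the lane plates stood apart, a comparison chosen after their values were seen set E8.5 against the 5 E7.5 plates without a lane. The ratios then were -0.56 for mt-Co2, -0.64 for mt-Co3 and -0.47 for mt-Atp6, and none of these genes passed the minimum. Of the 10 genes that did, 7 were called lower (mt-Nd2, mt-Nd4, mt-Nd5, mt-Nd6, mt-Rnr1, mt-Rnr2 and mt-Tp), against 8.19% of all genes, and 2 had all E8.5 plates below (mt-Nd6 and mt-Tp), against 6.01%. mt-Tp passed only through the 5 E7.5 plates without a lane, with 22.1 CPM there and 1.57 CPM at E8.5. Nothing is read from its calls. mt-Nd6 had a ratio of -2.17 and mt-Nd5 of -1.59. The sign of mt-Cytb turned, to 0.12. With lane plates set over the other E7.5 plates, mt-Co2 (4.02), mt-Co3 (3.81), mt-Atp6 (3.69), mt-Cytb (1.13) and mt-Nd2 (1.05) were called higher, 5 of 13 against 10.1% of all genes. Of them, 3, namely mt-Co2, mt-Co3 and mt-Atp6, had all lane plates above, against 3.73%. These 3 genes passed the minimum only through the lane plates, with pooled levels of 53.98, 42.7 and 41.98 CPM there and 2.40, 2.13 and 2.32 CPM on the other E7.5 plates, and the contrast was chosen with their values seen, so nothing is read from these counts. mt-Rnr1, mt-Rnr2 and mt-Tp were called lower on lane plates, against 6.26% of all genes. Of the 13 genes, 0 had all lane plates below. mt-Tp passed only through the other E7.5 plates, with 22.1 CPM there and 4.74 CPM on lane plates. Nothing is read from its call. The chimera plate had less mt-Rnr1 than any lane plate. For mt-Rnr2, the chimera plate (473.4 CPM) and embryo 2 (691.9 CPM) lay within the lane plate range of 395.2 to 962.7 CPM. Embryos 1, 4 and 5 lay above that range, with 7654, 2234 and 7719 CPM.

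**Figure D5:**
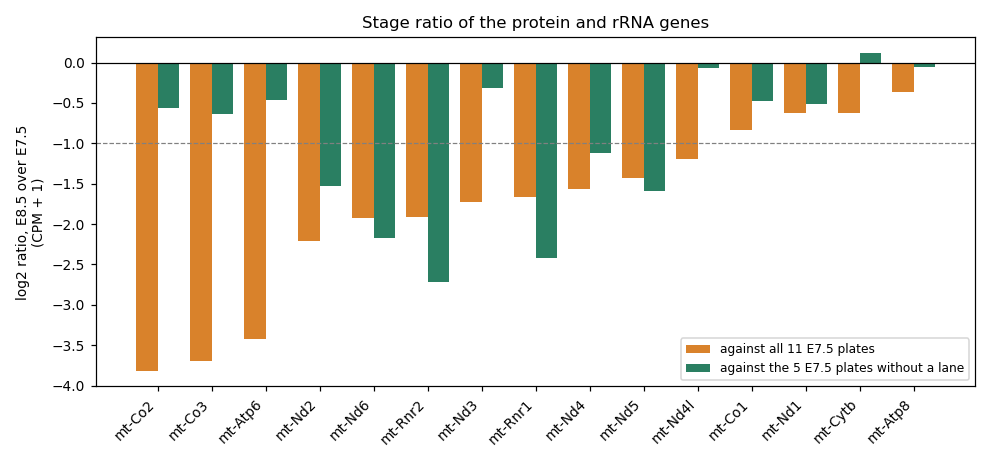
Stage ratio (log2 of E8.5 CPM over E7.5 CPM, pooled, with 1 CPM added) for the protein and rRNA genes, against all 11 E7.5 plates (orange) and against the 5 E7.5 plates without a lane (green); the dashed line marks -1. mt-Co2, mt-Co3 and mt-Atp6 lie near -3.5 or below in orange and above -1 in green, while mt-Nd6 and the rRNAs lie below -1 in both.

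Of the 15 protein and rRNA genes, the rRNAs varied most between embryos. mt-Rnr2, the large ribosomal RNA, had 7654 CPM in embryo 1, 691.9 in embryo 2, 2234 in embryo 4 and 7719 in embryo 5, a range of 11.2 times. mt-Rnr1, the small ribosomal RNA, had 1739, 413.001, 775.3 and 1592 CPM. For comparison, mt-Nd1 had 6158, 5099, 5832 and 6201 CPM in the same embryos, a range of 1.22 times. Embryos 1 and 5 were high for both rRNAs, and embryo 2 was low. The rRNAs held 31.7% and 30.6% of mitochondrial reads in embryos 1 and 5, 5.48% in embryo 2 and 11.3% in embryo 4.

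On the plates that are no numbered embryo, mt-Rnr2 lay between 285.2 and 997.4 CPM. The stage ratios were -1.91 for mt-Rnr2 and -1.67 for mt-Rnr1 with all plates, and -0.69 and -0.59 with lane plates as the only E7.5 plates. By its share, mt-Cytb also set the embryos apart. It held 9.37% to 9.97% of mitochondrial reads in the 4 embryos, 16.7% to 23.4% on the other E7.5 plates and 19.2% to 25.2% at E8.5. Its level did not, with 2007 to 3011 CPM in the embryos, 1927 to 3605 at E8.5 and at least 2688 on lane plates.

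The tRNAs were close to the limit of detection. The 22 genes, of 59 to 75 bases, held 0.0880% of mitochondrial reads at E7.5 and 0.0139% for E8.5. All but 1 are shorter than 1 read, so that a read covering one runs into a neighbouring gene or an unannotated gap. mt-Tp, mt-Tq and mt-Tn had the most reads, and all 3 are encoded on the minus strand. They are shown from 5′ to 3′ as the most frequent tRNAs, from chrM:15356-15422, chrM:3772-3842 and chrM:5089-5159.
mt-Tp: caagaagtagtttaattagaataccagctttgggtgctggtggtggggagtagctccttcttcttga
mt-Tq: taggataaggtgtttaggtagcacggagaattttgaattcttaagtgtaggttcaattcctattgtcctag
mt-Tn: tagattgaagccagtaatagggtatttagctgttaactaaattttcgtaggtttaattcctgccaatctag

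mt-Tp, the proline tRNA, had 12.3 CPM at E7.5 (plates 2.50 to 36.1) and 1.57 at E8.5 (1.04 to 3.18), a ratio of -2.37. mt-Tq, the glutamine tRNA, had 3.38 CPM at E7.5 (0.402 to 6.07) and 3 reads in all at E8.5, with every E8.5 plate below. mt-Tn, the asparagine tRNA, had 2.15 CPM at E7.5 and 2 reads at E8.5. Of its 1819 reads at E7.5, 1791 were on lane plates (3.75 CPM) and 28 on the other E7.5 plates (0.0758 CPM). For mt-Tn, too, every lane plate lay above every other plate. mt-Tc and mt-Tm had 1.51 and 1.18 CPM at E7.5, and none of the other tRNAs exceeded 0.254 CPM. At E8.5, 11 tRNAs were at 0 reads, namely mt-Ti, mt-Tw, mt-Ty, mt-Ts1, mt-Td, mt-Tk, mt-Tg, mt-Tr, mt-Th, mt-Ts2 and mt-Tl2, which by a floor of 3 counts over the stage allows up to 0.00601 CPM each. mt-Td was at 0 reads at E7.5 too, where the same floor is 0.00354 CPM. The floors cover counting error alone.

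Across wells of a plate, the abundant protein genes varied together. For the 7 protein genes with at least 100 CPM at E7.5, Spearman's rho across the wells of a plate had a median over 19 plates between 0.359 and 0.649 for the 21 pairs. mt-Nd4 and mt-Cytb had the highest median, and mt-Nd5 and mt-Nd6, which overlap by 14 bases on opposite strands, had 0.643. mt-Rnr1 and mt-Rnr2 reached 0.543 with each other. Pairs of an rRNA and a protein gene had medians from -0.01 to 0.435. Points of a plate share batch, depth and the sum to which they are scaled, so these are descriptions.

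Wells were next read by lineage markers. A well entered a class when at least 3 of the 6 markers of the class had at least 10 CPM and no other class had as many, which makes each class a range of marker counts and not a cell type. At E7.5 the largest classes were streak and nascent mesoderm (22.7% of wells), epiblast (19.6%) and haematoendothelial (10.6%). At E8.5 they were haematoendothelial (25.97%), erythroid (17.3%) and blood progenitor (10.8%). No class was given to 19.98% of wells at E7.5 and 22.1% of those of E8.5. The wells at exactly 3 markers were 3 for epiblast at E7.5 (19.6% of wells) and 9 for haematoendothelial at E8.5 (25.97%), but 6 of 29 for surface ectoderm, 8 of 11 for neural ectoderm and 3 of 3 for epiblast at E8.5. In the class of extraembryonic mesoderm and allantois they were 37 of 50 at E7.5 and 20 of 52 for E8.5. In this class at E7.5 the surface ectoderm markers summed to a higher median (1084 CPM) than its own (927.9 CPM), so it is not described further.

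Class medians spread less than wells did. At E7.5 the mitochondrial share was 2.08% in epiblast wells, 1.94% in streak and nascent mesoderm, 1.63% in haematoendothelial, 2.86% in erythroid, 2.60% in extraembryonic ectoderm and 3.004% in visceral endoderm. At E8.5 it was 1.36% in erythroid wells, 1.15% in haematoendothelial, 1.28% in blood progenitor, 1.33% in visceral endoderm and 0.806% in surface ectoderm. Classes were spread unevenly over plates, and for several of them the difference from other wells changed sign between plates.

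Where a plate held at least 5 wells of a class, they were compared with its other wells. Epiblast wells had the higher median on 6 of 8 plates, by 0.162 percentage points at the median plate, and streak and nascent mesoderm wells the lower one on 6 of 9. Haematoendothelial wells were higher on 2 of 4 plates at E7.5 and on 2 of 4 at E8.5. Extraembryonic ectoderm wells were higher on 3 of 3 plates, by 0.00661 to 0.743 points, and visceral endoderm wells on 2 of 2 at E7.5, by 0.381 to 0.467 points, but on 1 of 2 at E8.5. Blood progenitor wells were lower on 3 of 3 plates at E8.5, with differences from -0.0854 to -0.0142 points.

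Haemoglobin reads bear on the erythroid wells, because they take a large part of the total. At E8.5 the erythroid markers, 3 of which are globins, summed to a median of 163140 CPM in them. With globin reads left out of the total, their median mitochondrial share went from 1.36% to 1.63%. Compared with the other wells of a plate, erythroid wells at E8.5 were lower on plate 1 (1.12% against 1.37%) and higher on plate 2 (1.82% against 1.70%), and with globin reads left out they were higher on 2 of 2 plates.

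Gene by gene, erythroid and haematoendothelial wells of E8.5 were set side by side. mt-Co1 had 5279 CPM in erythroid and 4023 CPM in haematoendothelial wells, mt-Cytb 3070 and 2621, mt-Nd1 3567 and 3651, and mt-Rnr2 403.7 and 527.8. No plate held at least 5 wells of both classes, so class and plate cannot be told apart here.

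Finally, the nuclear partners of the mitochondrial genes were examined by 8 fixed lists, of which 97 genes passed the minimum. Among these, 11 were called lower at E8.5 and 0 higher, beside 8.21% and 7.02% of all genes. Their median ratio was -0.07, near that of all genes (0.08). All E8.5 plates lay below for 8 of the 97, beside 1.44% of all genes. By list, 4 of 36 nuclear subunits of complex I were called lower, 0 of 4 of complex II and 1 of 9 of complex III. For complex IV it was 2 of 11, and for complex V 3 of 15. Of the genes for mitochondrial transcription and DNA upkeep, 1 of 8 was called, 0 of 12 for RNA processing and 0 of 2 nuclear regulators. Lists this small were not compared with each other.

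The lowest ratios belonged to Uqcrb, a subunit of complex III (-1.81), and Atp5l, a subunit of complex V (-1.52). The highest, none of them called, belonged to Uqcrc2, a core subunit of complex III (0.81), and Atp5d, a subunit of complex V (0.65). Without lane plates 1 was called lower, beside 8.19% of all genes, and Uqcrb and Atp5l had ratios of -0.62 and -0.55.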

How the data were processed

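Single-cell RNA was captured on oligo-dT, amplified by Smart-seq2 and sequenced as 75-base single reads. The values deposited are whole-number counts of reads for each gene in each well, which the authors aligned to GRCm38 with HISAT2 2.1.0 and counted with featureCounts on an Ensembl annotation. Strand and multi-mapping settings are not given in the sources used here, so reads of overlapping or antisense genes cannot be told apart. Of 1824 wells, 175 had fewer than 100000 reads and were left out, and 0 columns were without a sample. Counts of the kept wells were summed per plate and stage and divided by all reads (CPM). Levels per kilobase used GENCODE M21 lengths. Copies were annotated transcripts sharing at least 30 words of 25 bases with a member, aligned with Biopython. Thinning drew 100000 reads per well. Each well was taken as 1 sorted cell and no doublet caller was run. No test was run between stages. Exact Poisson and Clopper-Pearson intervals used scipy 1.17.1. Alternatives included TMM (edgeR 4.0.16) and DESeq2 1.42.0 size factors. The 37-gene scaling multiplied counts by the pooled mitochondrial share, 2.03%, to keep the pseudocount on the CPM scale. On simulated plate sums, the stage ratio recovered the direction of 200 of 200 changed genes. The simulation had no lane or embryo structure and less spread between plates than mt-Co2 (SD 1.56 on the log2 scale). It therefore does not vouch for the ratios of such genes.

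The members, lists and rules were chosen with earlier results of these data known. Named were all 13 protein genes and both rRNAs, the 3 tRNAs with most reads and those at 0, nuclear copies with at least 1 CPM on any plate, and the 2 nuclear partners with the largest and the 2 with the smallest ratio. mt-Tc and mt-Tm, the lane plate comparisons, the contrasts of single embryos and the limit of 90% of shared windows were added after values were seen.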

Additional observations from a re-analysis of the deposited data

How the results depend on the processing

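The stage medians of the mitochondrial share stayed within 1 SD of the plate medians under every alternative run, from 1.91% (13 protein genes) to 2.47% (pooled reads) for E7.5 wells and from 1.11% to 1.28% for E8.5 wells. Leaving out 1 plate gave 2.05% to 2.25% and 1.10% to 1.22%, respectively. The number of genes called lower at E8.5 was 10, and 10 without any single plate, 5 when scaled to the reads on the 37 genes, and 16 with a minimum of 1 CPM or none, which admit more genes. The number with all E8.5 plates below was 2, and 1 with TMM or DESeq2 size factors, 5 with a minimum of 1 CPM or none, 2 to 5 without 1 plate (5 without the chimera plate and 5 without E8.5 plate 2) and, chosen after seeing the data, 6 against lane plates alone. The log2 ratio of mt-Co2 over the other 12 protein genes was -3.71, ran from -3.84 to -3.46 without 1 plate, and was -0.30 without the 6 lane plates, also chosen after seeing the data. For nuclear partners, 11 were called lower, and 1 without lane plates. The cause of these changes was not tested. The E8.5 erythroid median ran from 1.14% to 1.78% without 1 plate, the haematoendothelial one from 1.002% to 1.23%, the E7.5 epiblast one from 1.92% to 2.31% and the E7.5 extraembryonic ectoderm one from 2.48% to 2.65%. No paired analysis was possible because plates carry no number shared between the stages that the labels tie to an animal. The tRNAs had 18421 reads at E7.5 and 890 reads for E8.5.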
